A study of Mus musculus with 9 samples.

Results

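The 10 genes described here mark the endothelial cells that line blood vessels and the endocardium that lines the heart chambers: Pecam1, Cdh5, Kdr, Flt1, Tek, Tie1, Eng, Emcn, Vwf and Nfatc1. They were chosen by name, by a rule that uses no measured value, but with earlier results of these data known. All 10 were among the 24571 gene symbols used and among the 13682 genes that passed the filter on low values. RNA was taken from whole hearts of mouse embryos at E18.5 in 3 groups of 3 libraries each. Wild-type embryos carried no edited allele, Ctcf +/R567W embryos were heterozygous and Ctcf R567W/R567W embryos were homozygous for CTCF-R567W, an amino acid change in the chromatin protein CTCF that was made by CRISPR/Cas9 editing on a C57BL/6N background. The allele was in the germline and so was present in every cell type of the heart, and the wild-type hearts shared the strain and age of the mutant hearts. The labels do not say whether libraries of a group came from separate animals or litters, so p-values measure the spread between these libraries. A library is called a heart below for short. Ctcf itself was at 27.01 to 34.3 TPM in wild-type hearts, 33.2 to 38.7 TPM in the heterozygous group and 38.9 to 50.2 TPM in the homozygous group, and a level per gene does not read the edited codon, so it does not check the genotypes. The values are TPM, a read count divided by transcript length and scaled so that each library adds up to the same total. The table keeps no record of sequencing depth, so no counting interval was given for any level.

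Endothelial cells form the inner wall of vessels, and the endocardium is their specialised form in the heart, from which valve tissue and some coronary vessels arise. They are kept alive and patterned by vascular endothelial growth factor (VEGF), which is received by KDR and FLT1, and by the angiopoietins, which are received by TEK with its partner TIE1. PECAM1 and VE-cadherin, the product of Cdh5, hold neighbouring cells together at their junctions. In the developing heart, VEGF from the muscle acts on the endocardium, and NFATc1 is used as a marker of endocardial cells in the valve region.

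Promoter sequences are shown for the 2 VEGF receptor genes, for Tek and for Eng, since Kdr to Tek, Tek to Flt1 and Eng to Tek are among the ratios described further on that had no overlap between homozygous and other hearts. Each window ended at the base before the annotated transcript start, came from RefSeq (GRCm38.p6), and is written 5′ to 3′ on the strand of the gene. Capitals mark GGAA or its reverse complement TTCC, the core letters bound by ETS factors, a family that includes the endothelial regulators ERG and FLI1. The windows are Kdr on the minus strand at chr5:75978459-75978705, Flt1 on the minus strand at chr5:147726012-147726261, Tek on the plus strand at chr4:94739039-94739288 and Eng on the plus strand at chr2:32646345-32646594.
Kdr: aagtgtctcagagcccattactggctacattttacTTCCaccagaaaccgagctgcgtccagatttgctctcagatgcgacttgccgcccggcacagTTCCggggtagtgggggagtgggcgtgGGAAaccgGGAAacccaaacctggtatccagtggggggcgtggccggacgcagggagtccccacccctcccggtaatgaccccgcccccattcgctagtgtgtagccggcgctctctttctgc
Flt1: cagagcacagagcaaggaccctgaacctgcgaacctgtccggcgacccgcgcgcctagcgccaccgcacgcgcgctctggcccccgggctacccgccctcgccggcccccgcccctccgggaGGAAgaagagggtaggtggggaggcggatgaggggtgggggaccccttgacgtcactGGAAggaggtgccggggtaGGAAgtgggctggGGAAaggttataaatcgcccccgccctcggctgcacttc
Tek: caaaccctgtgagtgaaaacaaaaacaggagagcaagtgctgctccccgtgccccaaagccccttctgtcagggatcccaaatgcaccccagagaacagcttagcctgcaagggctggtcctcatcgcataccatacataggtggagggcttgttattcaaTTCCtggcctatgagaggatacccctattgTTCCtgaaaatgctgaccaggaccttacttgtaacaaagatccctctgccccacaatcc
Eng: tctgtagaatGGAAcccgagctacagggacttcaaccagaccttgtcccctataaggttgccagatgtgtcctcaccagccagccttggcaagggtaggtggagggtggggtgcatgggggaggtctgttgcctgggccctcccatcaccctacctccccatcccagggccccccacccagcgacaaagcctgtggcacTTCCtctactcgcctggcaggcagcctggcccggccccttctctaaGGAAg

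The search for GGAA on both strands found 4 matches in the Kdr window, 4 in Flt1, 2 in Tek and 3 in Eng, while the median over 32851 promoters was 3 and 93.4% of them held at least 1 match. Emcn had 4, a number reached by 33.4% of promoters. The window of Tie1, the other one of 6 that were searched, held 7 matches, a number reached by 3.82% of promoters. That window lies largely inside an annotated transcript, and its sequence is not printed. The GATA letters GATAAG, searched on both strands, were present in 0 of the 6 windows and in 6.55% of all promoters. TATAAA was present in 1 of the 6 windows, that of Flt1, and in 12.4% of all promoters. These counts describe letters in a window and give no measure of factor binding.

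In wild-type hearts the 10 markers spanned more than a decade of TPM, from Nfatc1 at 8.60 ± 1.41 to Eng at 107 ± 12.2 (SD, n = 3). Over the 9 libraries Eng, a co-receptor for BMP and TGF-beta ligands, had the highest mean level of 110.6 TPM, which lay above 93.6% of all tested genes. Cdh5 followed at 85.1 TPM and Pecam1 at 75.6 TPM. Emcn, Tie1 and Kdr formed a middle group at 43.2, 42.6 and 40.9 TPM. Vwf had a mean of 31.4 TPM, Tek 27.1 TPM and Flt1 19.7 TPM. Nfatc1 was lowest at 9.44 TPM, a level above that of 42.5% of tested genes. All 10 were above 0 in all 9 libraries, so the defining markers of endothelium were present in every heart.

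Neighbours in this order were not equally separated. Eng exceeded Cdh5, Pecam1 exceeded Emcn, Tek exceeded Flt1 and Flt1 exceeded Nfatc1 in 9 of 9 libraries, and Cdh5 exceeded Pecam1 in 8 of 9. Kdr lay above Vwf in 7 of 9 libraries. Emcn and Tie1, Tie1 and Kdr, and Vwf and Tek changed places, with the first of each pair higher in 6 of 9 libraries, and the order within those pairs was within their spread.

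**Figure D1:**
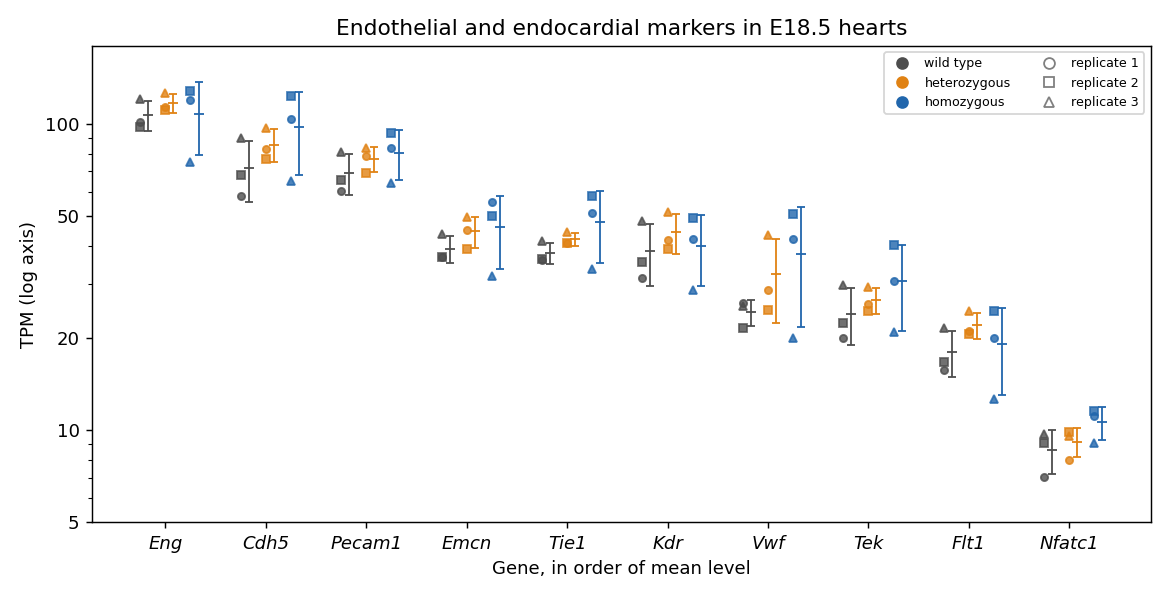
TPM of the 10 endothelial and endocardial markers (vertical axis, logarithmic) in the 9 hearts for each gene in order of mean level (horizontal axis), with 1 point per library coloured by genotype and bars for the group mean ± SD (n = 3). Levels ran from 7.02 TPM for Nfatc1 to 128.69 TPM for Eng, and the groups overlapped for every marker.

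Homozygous hearts were first set against wild-type hearts, which asks whether the vascular lining was altered by the mutation, no marker changed by the test. With limma on log2(TPM + 1) and Benjamini-Hochberg adjustment over all 13682 genes, 0 of 10 markers passed an adjusted p of 0.05, against 0.336% of all tested genes, and 0 of 10 had an unadjusted p under 0.05, against 3426 genes overall. Without a model, 0 of 10 markers had groups that did not overlap, against 24.7% of all genes. The log2 change on this scale was above 0 for 9 of 10 markers, with a median of 0.24, but the median of all tested genes was 0.23 and 81.7% of all genes were above 0, so the markers' median lay close to that of the table. Under median-ratio scaling, which moved the median of all genes to 0.02, the markers' median was 0.01 and 4 of the 9 positive estimates (Pecam1, Kdr, Flt1 and Emcn) were below 0. Homozygous against heterozygous hearts gave 0 of 10 by the test, against 0.0439% of genes, and 0 of 10 without overlap, against 15.9%. Heterozygous against wild-type hearts gave 0 of 10, against 0.0146%, and 0 of 10 without overlap, against 13.8%. Their medians were 0.10 and 0.17, beside 0.08 and 0.15 over all genes. These 3 comparisons share their groups and are not independent of each other.

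**Figure D2:**
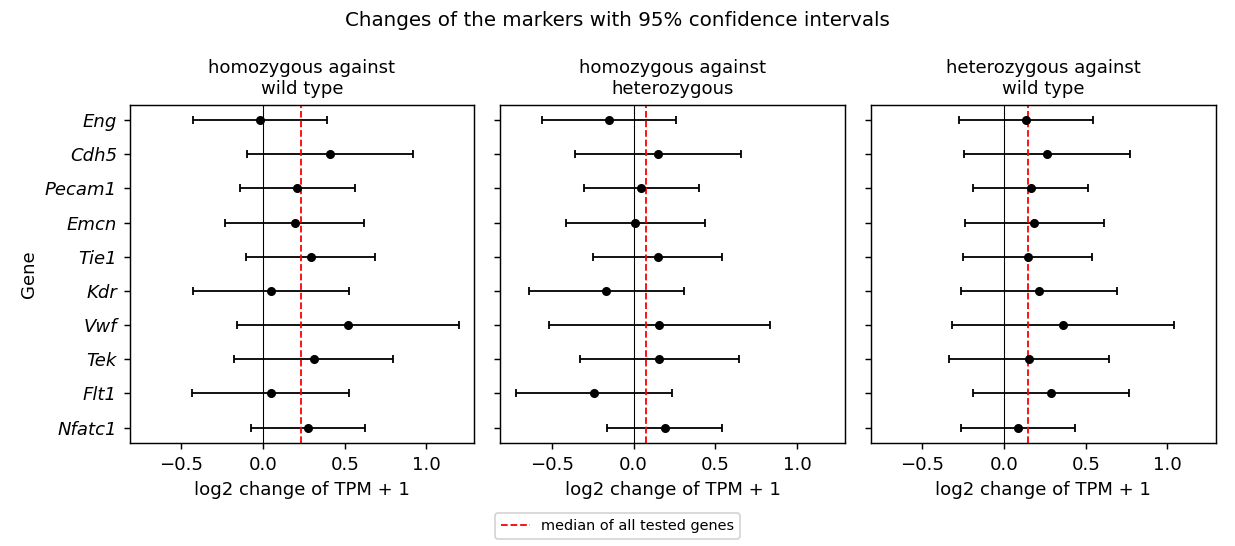
Change of each marker on the log2(TPM + 1) scale (horizontal axis) in the 3 comparisons, with 95% confidence intervals from limma and a dashed line at the median of all tested genes. Every interval includes 0, and in homozygous against wild-type hearts the estimates run from −0.02 for Eng to 0.52 for Vwf.

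The junction genes had similar profiles. Pecam1 (chr11:106654217-106750628, minus strand, mm10 with GENCODE M21), the adhesion receptor CD31, was at 60.6, 65.8 and 80.95 TPM (wild type), 78.4, 69.4 and 83.5 TPM (heterozygous) and 83.4, 93.6 and 64.3 TPM (homozygous). Homozygous replicate 3 lay inside the wild-type range while the other two homozygous hearts lay above it. Its log2 change was 0.21 (95% CI −0.14 to 0.56, limma adjusted p = 0.402) in homozygous against wild-type hearts. Cdh5 (chr8:104101625-104144511, plus strand), the cadherin of endothelial adherens junctions, was at 58.1, 68.2 and 89.8 TPM (wild type), 82.7, 76.7 and 97.2 TPM (heterozygous) and 104.3, 124 and 65.3 TPM (homozygous). Again the first 2 homozygous hearts exceeded all wild-type hearts and replicate 3 did not. The log2 change of Cdh5 was 0.41 (95% CI −0.10 to 0.92, limma adjusted p = 0.273).

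The VEGF receptors had smaller estimates. Kdr (chr5:75932827-75978458, minus strand) encodes VEGFR2, the main signalling receptor for VEGF-A. It was at 31.4, 35.5 and 48.3 TPM (wild type), 41.8, 39.2 and 51.8 TPM (heterozygous) and 41.99, 49.4 and 28.7 TPM (homozygous), so that homozygous hearts held values above and below the whole wild-type range. Flt1 (chr5:147561604-147726011, minus strand) encodes VEGFR1, which binds VEGF-A tightly and limits its access to KDR. It was at 15.8, 16.7 and 21.5 TPM (wild type), 21.04, 20.6 and 24.5 TPM (heterozygous) and 20.1, 24.6 and 12.6 TPM (homozygous), with the lowest of the 9 values in homozygous replicate 3. The log2 change in homozygous against wild-type hearts was 0.05 for Kdr (95% CI −0.43 to 0.52, limma adjusted p = 0.900) and 0.05 for Flt1 (95% CI −0.43 to 0.52, limma adjusted p = 0.902). Against heterozygous hearts both estimates were below 0, at −0.17 for Kdr and −0.24 for Flt1, and neither passed the test.

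The TIE receptors resembled the junction genes. Tek (chr4:94739289-94874976, plus strand), the angiopoietin receptor TIE2, was at 20.01, 22.4 and 29.7 TPM (wild type), 25.7, 24.4 and 29.4 TPM (heterozygous) and 30.7, 40.2 and 20.96 TPM (homozygous). Tie1 (chr4:118471191-118490061, minus strand), a receptor that modulates TIE2, was at 36.1, 36.3 and 41.4 TPM (wild type), 40.7, 40.8 and 44.4 TPM (heterozygous) and 51.2, 58.3 and 33.7 TPM (homozygous). For both genes homozygous replicates 1 and 2 were above every wild-type and heterozygous heart, and replicate 3 was within or below the wild-type range. The log2 change was 0.31 for Tek (95% CI −0.18 to 0.80, limma adjusted p = 0.373) and 0.29 for Tie1 (SE 0.18, limma adjusted p = 0.308).

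Eng (chr2:32646595-32682669, plus strand), which encodes endoglin, was the marker with the lowest estimate. It was at 101.7, 98.1 and 121 TPM (wild type), 114, 111 and 126 TPM (heterozygous) and 120.2, 129 and 74.9 TPM (homozygous), and its log2 change in homozygous against wild-type hearts was −0.02 (95% CI −0.43 to 0.39, limma adjusted p = 0.958). The lowest and the highest of its 9 values were both homozygous. The 3′ end of Eng overlaps Fpgs on the opposite strand over 61 of 4048 exonic bases, and Fpgs itself was at 8.30 to 14.6 TPM in the 9 libraries. Whether the counting used strand is not given in the sources used here.

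Emcn (chr3:137341067-137432185, plus strand) encodes endomucin, a surface mucin of capillary, venous and endocardial cells. It was at 36.7, 36.8 and 43.8 TPM (wild type), 44.99, 39.2 and 49.6 TPM (heterozygous) and 55.7, 50.1 and 31.97 TPM (homozygous), with a log2 change of 0.19 (95% CI −0.23 to 0.62, limma adjusted p = 0.515). Homozygous hearts again held its highest and its lowest value. Vwf (chr6:125546774-125686679, plus strand) encodes von Willebrand factor, the adhesive clotting protein stored by endothelial cells and platelets. It was at 25.95, 21.5 and 25.4 TPM (wild type), 28.7, 24.8 and 43.3 TPM (heterozygous) and 42.1, 51.01 and 20.03 TPM (homozygous). Vwf had the highest estimate and the widest interval of the 10, 0.52 (95% CI −0.16 to 1.2, limma adjusted p = 0.295). The 8 platelet markers, which belong to a cell type that also makes Vwf and Pecam1, summed to 22.7 to 32.4 TPM (wild type), 24.4 to 33.8 TPM (heterozygous) and 14.8 to 37.9 TPM (homozygous). Pf4 was the largest single part of each sum, which can hide low genes of the list. It was at 32.7 TPM in homozygous replicate 2 and at 10.6 TPM in homozygous replicate 3. The part of platelets in the Vwf values was not tested.

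Nfatc1 (chr18:80606205-80713071, minus strand), the calcineurin-regulated transcription factor of valve endocardium, differed from the rest in its spread. It was at 7.02, 9.05 and 9.73 TPM (wild type), 8, 9.83 and 9.58 TPM (heterozygous) and 11.2, 11.6 and 9.07 TPM (homozygous). Its homozygous replicate 3 was within the wild-type range, as for the junction genes, but its highest homozygous value was only 1.27 times its lowest. The log2 change was 0.28 (SE 0.16, limma adjusted p = 0.285) in homozygous against wild-type hearts and 0.08 in heterozygous against wild-type hearts.

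Homozygous hearts had the highest SD in TPM of the 3 groups for 9 of 10 markers, all but Nfatc1. The share of all tested genes with their highest SD in homozygous hearts was not computed. For every marker the lowest homozygous value was that of replicate 3, the library that also stood apart in thymocyte markers, as described below. Between the highest and the lowest homozygous heart the fold was 2.55 for Vwf, 1.95 for Flt1, 1.92 for Tek and 1.89 for Cdh5. The SD of homozygous Vwf on the log2 scale was higher than that of 94.9% of tested genes, and for Cdh5, Flt1 and Tek it was higher than that of 88.96%, 88.6% and 87.9%. For Eng, Emcn, Tie1 and Kdr the share was 83.1% to 85.6%, for Pecam1 66.1% and for Nfatc1 39.5%.

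The markers were also described by their mean in each heart. The mean log2(TPM + 1) of the 10 markers, each gene centred on the 9 libraries, was −0.29, −0.21 and 0.08 in wild-type, 0.00, −0.06 and 0.23 in heterozygous and 0.23, 0.41 and −0.38 in homozygous hearts. Homozygous replicates 1 and 2 had 10 of 10 markers above their own mean over the 9 libraries, as did heterozygous replicate 3, and homozygous replicate 3 and wild-type replicates 1 and 2 had 0 of 10. In wild-type replicate 3 the number was 8, with Vwf and Tie1 below, and in heterozygous replicates 1 and 2 it was 5 and 3. Summed over the markers, the level was 438 ± 63.8 TPM (wild type), 500.3 ± 53.5 TPM (heterozygous) and 518 ± 139.9 TPM (homozygous) (SD, n = 3). The median of all tested genes, centred in the same way, was −0.23, −0.18 and 0.04, then 0.02, −0.05 and 0.09, then 0.13, 0.17 and −0.02 in the same order of libraries. The mean of the markers was thus below this median in homozygous replicate 3 and above it in homozygous replicates 1 and 2. Single markers departed from that, with Kdr and Flt1 at 0.06 and 0.05 in homozygous replicate 1, below its median of 0.13, and Nfatc1 at −0.04 in homozygous replicate 3, close to its median. In whole hearts, fewer endothelial cells and less marker RNA per cell cannot be told apart.

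**Figure D3:**
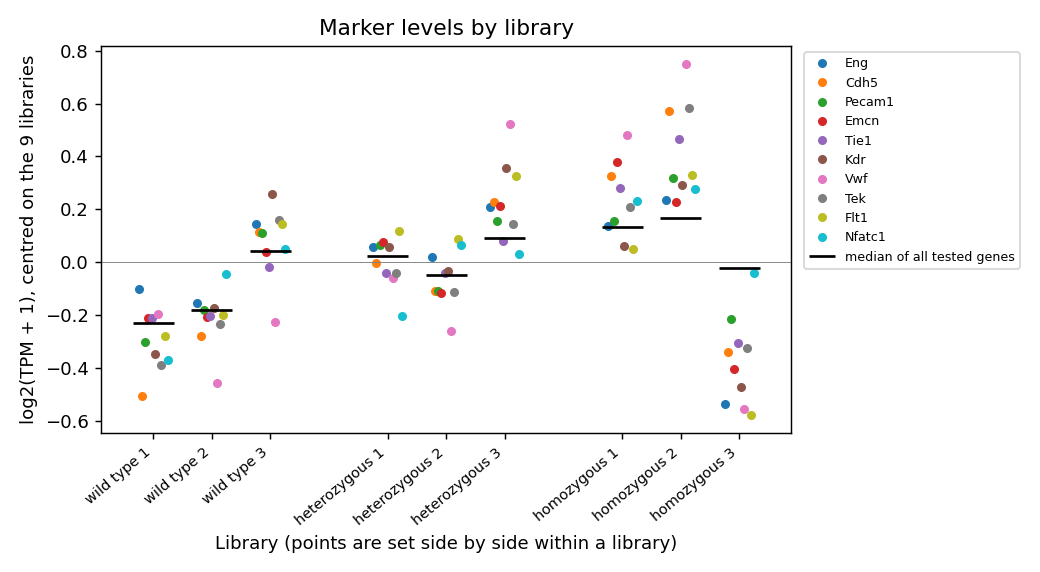
Level of each marker on the log2(TPM + 1) scale (vertical axis), centred on its mean over the 9 libraries, in each library, with a black line at the median of all tested genes. In homozygous replicates 1 and 2 all 10 markers lie above 0, and in homozygous replicate 3 all 10 lie below 0.

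Homozygous replicate 3 also stood apart in markers of other cells. The 12 thymocyte markers summed to 582 TPM in it and to 0.56 to 2.78 TPM in the other 8 libraries. Its 14 cardiomyocyte markers summed to 41321 TPM beside 51511 to 58926 TPM elsewhere, and its 8 fibroblast markers to 856 TPM beside 1101 to 1928 TPM. Lung epithelial markers summed to 0.81 to 3621 TPM (wild type), 0.64 to 1633 TPM (heterozygous) and 1.82 to 76.5 TPM (homozygous), with the highest sums in wild-type and heterozygous replicates 1. Of those markers, Sftpc was at 75.6 TPM in wild-type replicate 1 and at 0 in wild-type replicate 2, heterozygous replicate 3 and homozygous replicate 2. Hepatocyte markers reached 3264 TPM in heterozygous replicate 1 and 18.0 to 70.3 TPM in the others. Lung and liver bring endothelium of their own. The 7 genes enriched in lung endothelium summed to 39.2 to 39.9 TPM in wild-type hearts, replicate 1 with 3621 TPM of lung markers included. Their sums were 41.8 to 48.7 TPM in heterozygous and 46.3 to 67.3 TPM in homozygous hearts. Ednrb was the largest single part of each sum, which can hide low genes of the list. Foxf1, at low levels, peaked in replicate 1 of every genotype. Its wild-type values were 1.72, 0.09 and 0.15 TPM, its heterozygous values 0.93, 0.09 and 0.46 TPM. Car4 went the other way among wild-type hearts, with 1.71 TPM in replicate 1 beside 3.02 and 3.22 TPM. The 5 liver sinusoidal genes summed to 16.1 to 23.4 TPM in all 9. Xist, transcribed in female cells, was at 87.8 to 146 TPM in 3 of 3 heterozygous hearts, in 1 of 3 wild-type and in 1 of 3 homozygous hearts, and a fit with Xist as a covariate called 0 of 10 markers in each comparison. The part of these tissues and of the thymic RNA in the marker levels was otherwise not tested.

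Values without the libraries that stood apart were therefore computed. Without homozygous replicate 3, 7 of 10 markers (Pecam1, Cdh5, Tek, Tie1, Emcn, Vwf and Nfatc1) had groups that did not overlap in homozygous against wild-type hearts, all of them higher in homozygous hearts, against 50.4% of all genes. The markers' median log2 change was then 0.40, beside 0.28 over all genes, and 0 of 10 passed the test in that fit, which called 247 genes. Without wild-type and heterozygous replicates 1 the median was 0.15, and without these and homozygous replicate 3 it was 0.33, with 0 of 10 called in each. When limma estimated a weight for each library from the data, homozygous replicate 3 was given the lowest, 0.258, and homozygous replicate 1 the highest, 2.30. Wild-type replicate 3, the wild-type library with the highest summed level of the markers, was also given a low weight, 0.3555. That fit called 6 of 10 markers higher in homozygous than in wild-type hearts (Pecam1 0.36, Cdh5 0.65, Tek 0.52, Tie1 0.48, Emcn 0.46 and Vwf 0.86 on the log2 scale), against 37% of all genes. The median log2 change of the markers in it was 0.41, beside 0.31 over all genes.

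Proportions between markers within a heart do not depend on the scaling of a library and were therefore compared next. Of 45 ratios of 2 markers, 13 (28.9%) had no overlap between homozygous and wild-type hearts, against 22.5% of all ratios among the 9905 tested genes that averaged 5 TPM or more and had no value of 0. Between homozygous and heterozygous hearts the number was also 13, against 17.1% of all ratios. Between heterozygous and wild-type hearts it was 4 (8.89%), against 13.1% of all ratios. In 10 ratios (22.2%) homozygous hearts lay on 1 side of both other groups, against 9.87% over all ratios. These ratios share genes, so they are not 10 separate observations. An exact two-sided permutation test with 3 against 3 hearts cannot give a p below 0.1, and after Benjamini-Hochberg adjustment over the 45 ratios the smallest was 0.346, so no ratio passed a test.

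These 10 ratios, singled out after their values were seen, each had Kdr, Flt1 or Eng on one side and Pecam1, Cdh5, Tek or Tie1 on the other. The 13 ratios without overlap between homozygous and wild-type hearts also included Eng to Emcn, Eng to Vwf and Cdh5 to Tek, and Pecam1 to Kdr and Pecam1 to Flt1 overlapped in that comparison. The Tek to Flt1 ratio was 1.27, 1.34 and 1.38 in wild-type, 1.22, 1.18 and 1.2 in heterozygous and 1.53, 1.64 and 1.66 in homozygous hearts, so that angiopoietin receptor RNA was high in proportion to Flt1 RNA in each homozygous heart, replicate 3 included. Heterozygous hearts lay below all wild-type hearts in this ratio, the opposite side from homozygous hearts. For Cdh5 to Flt1 the values were 3.69, 4.08 and 4.18, then 3.93, 3.72 and 3.97, then 5.19, 5.03 and 5.18. The Cdh5 to Kdr ratio was 1.85, 1.92 and 1.86, then 1.98, 1.96 and 1.88, then 2.48, 2.50 and 2.28. In these 3 ratios homozygous hearts lay above all 6 others. Kdr to Tek lay the other way, at 1.57, 1.59 and 1.62 in wild-type, 1.62, 1.61 and 1.76 in heterozygous and 1.37, 1.23 and 1.37 in homozygous hearts. Eng to Tie1 was 2.82, 2.7 and 2.91, then 2.79, 2.72 and 2.84, then 2.35, 2.21 and 2.22, and Eng to Cdh5 was 1.75, 1.44 and 1.34, then 1.37, 1.44 and 1.30, then 1.15, 1.04 and 1.15. Both endoglin ratios were lowest in the 3 homozygous hearts. The other 4 ratios of this kind were Eng to Pecam1, Eng to Tek, Tie1 to Kdr and Tie1 to Flt1.

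Counted by gene for homozygous against wild-type hearts, Eng was lower in 6 of its 9 ratios, and Kdr and Flt1 were each lower in 3 of 9, with the remaining ratios of these genes overlapping. Nfatc1 had 0 ratios without overlap, and Pecam1, Emcn and Vwf had 1 each. The promoter windows of Flt1 and Tek had 4 and 2 GGAA matches and a GC content of 70.4% and 51.2%, while Kdr and Eng stood between them in GC content at 61.5% and 62.4%. A relation between these letters and the ratios was not tested.

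**Figure D4:**
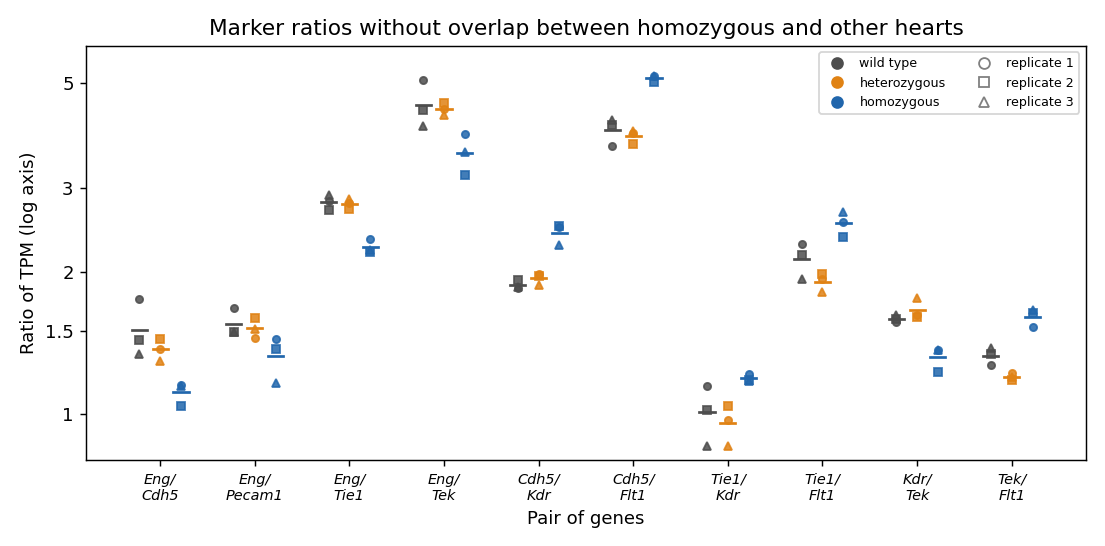
Ratio of TPM between 2 markers within a heart (vertical axis, logarithmic) for 10 pairs of genes (horizontal axis), with 1 point per library coloured by genotype and a line at the group mean. In the ratios shown, the 3 homozygous hearts lie on 1 side of the 6 other hearts, for example at 1.53 to 1.66 for Tek to Flt1 against 1.18 to 1.38.

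A second scaling, added after the data had been seen, took each gene relative to the mean log2 level of 16 other pan-endothelial genes, such as Egfl7 and Robo4. On this scale Eng was at 2.17, 2.02 and 2.05 in wild-type, 2.04, 2.08 and 2.02 in heterozygous and 1.92, 1.88 and 1.63 in homozygous hearts. In homozygous against wild-type hearts it stood at −0.27 on the log2 scale (SE 0.10, limma adjusted p = 0.256). Kdr and Flt1 had −0.21 each, with limma adjusted p of 0.415 and 0.452, and Vwf and Cdh5 had 0.26 and 0.16. None of the 10 markers passed limma's test here, where 94 genes overall did. Pecam1 and Eng, 2 of 10, had groups that did not overlap, both lower in homozygous hearts, against 16.8% of all genes. Against heterozygous hearts Kdr, Flt1 and Eng, 3 of 10, did not overlap and were lower, against 12.1% of all genes. The log2 changes there were −0.25, −0.33 and −0.24, and 0 of 10 passed the test.

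The ligands, partners and subtype genes of the same pathways were then described from lists chosen with earlier results of these data known. In every list, 0 genes passed the test in any of the 3 comparisons. Other fits of homozygous against wild-type hearts did call some of the 117 list genes tested. The fit without wild-type replicate 3 called 19, against 15.9% of all genes, that without homozygous replicate 3 called 5, against 1.81%, and that with library weights called 59, against the 37% given above. Of the genes named below by their place in a list, Aplnr, Cxcr4, Edn1, Fli1, Id1, Jam2, Klf2 and Tgfbr1 were called without wild-type replicate 3, and Angpt1 without homozygous replicate 3. Gja5, of the arterial list, was called without either of these libraries and with library weights. In homozygous against wild-type hearts the median log2 change was 0.21 for 8 VEGF ligands and other VEGF receptors, 0.41 for 5 angiopoietin-TIE partners, 0.28 for 14 endoglin partners and BMP or TGF-beta signalling genes and 0.12 for 9 calcineurin-NFAT genes, beside 0.23 for all genes. Among VEGF ligands averaging 5 TPM or more, Vegfc, which signals mainly through the lymphatic receptor FLT4, had the highest estimate of 0.61 (limma adjusted p = 0.112). It was at 5.14, 4.85 and 4.66 TPM (wild type) and at 8.24, 9.81 and 6.24 TPM (homozygous). Every homozygous heart was above every wild-type heart. That held for 2 of the 8 genes of this list, while 24.7% of all genes had no overlap. Vegfb was lowest of that list at −0.08. Angpt1, the activating ligand of TIE2, was at 17.6, 16.7 and 17.7 TPM (wild type), 26.1, 25.3 and 22.2 TPM (heterozygous) and 40.4, 54.2 and 16.1 TPM (homozygous). As with Tek itself, homozygous replicate 3 was low and the other 2 homozygous hearts were high, and its log2 change was 0.89 (limma adjusted p = 0.151). The forkhead factor Foxo1, held in check by TIE2 signalling, was lowest of its list at 0.25.

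In the endoglin list the type I receptor gene Tgfbr1 was highest at 0.56 (limma adjusted p = 0.113), with 10.2 ± 1.71 TPM for wild-type and 15.4 ± 0.437 TPM for homozygous hearts (SD, n = 3). Id1, a target gene of BMP signalling in endothelium, was lowest at −0.67 (limma adjusted p = 0.138), from 87.5 ± 24.9 to 53.9 ± 13.6 TPM. Wild-type Id1 ranged from 58.95 to 105 TPM and overlapped the homozygous range. Of the calcineurin-NFAT genes, Nfatc3 had 0.69 and the calcineurin inhibitor gene Rcan1 had −0.12.

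Junction genes outside the 10 markers had a median of 0.26 over 11 genes, endothelial transcription factors 0.27 over 16 and other pan-endothelial genes 0.27 over 16. Jam2, a junctional adhesion molecule gene, had the lowest adjusted p of the genes named by their place in a list, 0.097 by limma. The arterial list held a lower one, a limma adjusted p of 0.096, for a gene with neither its highest nor its lowest change. The log2 change of Jam2 was 0.80, from 7.54 ± 1.66 TPM to 13.9 ± 2.74 TPM. Its 3 homozygous values of 14.4, 16.3 and 10.9 TPM all lay above the wild-type maximum of 9.37 TPM. Such a rise without overlap was found in 2 of the 11 junction genes, while 24.7% of all genes had no overlap. The catenin gene Ctnna1 had 0.03. Of the transcription factors, the ETS gene Fli1 had 0.62, and Klf2, a gene induced by blood flow, had −0.68 with wild-type values of 76.2, 43.8 and 19.7 TPM. Its estimate was −1.18 without wild-type replicate 3 (limma adjusted p = 0.038) and −0.23 without wild-type replicate 1. Calcrl and S1pr1, which encode receptors for adrenomedullin and sphingosine-1-phosphate, had 0.54 and −0.23.

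Genes of endothelial subtypes gave medians of 0.26 over 9 endocardial and valve genes, 0.43 over 12 arterial, 0.39 over 3 venous, 0.03 over 8 capillary and 0.36 over 6 lymphatic genes. Cytl1 had 0.47 and Edn1, the gene of endothelin-1, had −0.57 in the endocardial list. Cxcr4, the arterial chemokine receptor gene that thymocytes also express, had 1.57 and reached 26.3 TPM in homozygous replicate 3, the library with 582 TPM of thymocyte markers. Its estimate without that library was 1.06. Rgcc had 0.80 in the capillary list and was likewise highest in that library, at 42.2 TPM, and its estimate without that library was 0.30. The lymphatic chemokine gene Ccl21a, which is also made in the thymus, had 1.11 with 11.7, 23.5 and 29.6 TPM in homozygous hearts. Without homozygous replicate 3 its estimate was 0.85. Hey1 had −0.03, Aplnr 0.64 (0.31 without wild-type replicate 1, 0.998 without wild-type replicate 3), Ephb4 0.33, Apln −0.13 and Lyve1 0.00. None of these passed the test with all 9 libraries.

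The genes outside the 10 markers whose profile over the 9 libraries came closest to the markers' mean were Sntb2, Pygb, Sulf2, Aplp2 and Fto, with a root-mean-square difference of 0.0451 to 0.0519 on the centred log2 scale. Sntb2 encodes a syntrophin and Pygb a glycogen phosphorylase. The median of the 9942 genes compared was 0.219. Of the markers themselves, Tie1 was nearest at 0.0749 and Pecam1 next at 0.0766, and Nfatc1 and Vwf were farthest at 0.171 and 0.237. For Tie1, 62 genes outside the markers were closer to the markers' mean than it was, and for Vwf the number was 5779. That mean includes the marker itself but no outside gene, so the comparison was not on equal terms.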

How the data were processed

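Expression was measured by RNA-seq of poly(A) RNA in 9 libraries from whole E18.5 hearts, 3 per genotype, grouped by the genotype in the labels. Per the submitters' processing notes, reads were trimmed with Trim Galore and aligned to mm10 with STAR, and the authors deposited RSEM values as TPM for each gene symbol. The annotation release and the strand setting are not given in the sources used here. The authors' own comparison used DESeq2, which needs counts. Of 24597 table entries, 26 with symbols turned into dates were left out.

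From the TPM, log2(TPM + 1) of the 13682 genes averaging 1 TPM or more was fitted over all 3 groups in limma 3.58.1 (R 4.3.3, empirical Bayes with a mean-variance trend), with Benjamini-Hochberg adjustment over all genes and a threshold of 0.05. A fold change on this scale understates the change of low genes. The script was tested on simulated data. Alternatives were other pseudocounts, filters, scalings and sample sets, a replicate block and library weights. Replicate numbers in the labels name libraries, and their deviations did not correlate in every pair.

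The 10 markers and the gene lists were chosen with earlier results of these data known. Of the lists, the highest and the lowest change in homozygous against wild-type hearts among genes averaging 5 TPM or more were named for each list, together with any gene passing the test and the 5 genes nearest in profile. Ratios used TPM without a pseudocount and exact two-sided permutation tests. Gene positions came from GENCODE M21, promoters of 6 markers from RefSeq. Transcript words of 31 bases shared with other genes made up at most 2.11% of any marker's words. Xist levels were above background in all heterozygous hearts and in 1 heart of each other genotype, and a fit with Xist as a covariate was among the alternatives.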

Additional observations from a re-analysis of the deposited data

How the results depend on the processing

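Markers passing the test numbered 0 of 10 in each comparison under every alternative tried but 1, the fit with library weights, which called 6 in homozygous against wild-type hearts. The markers' median log2 change ranged from 0.11 to 0.40 in homozygous against wild-type, from −0.07 to 0.27 in homozygous against heterozygous and from 0.10 to 0.29 in heterozygous against wild-type hearts when each library was left out in turn. The 2 libraries left in a group were then assumed to vary like the other groups. Genes called over the whole table in homozygous against wild-type hearts, 46 as reported, numbered 2170 without wild-type replicate 3, 247 without homozygous replicate 3, 229 with median-ratio scaling and 8 without wild-type and heterozygous replicates 1, while 0 markers were called in each. Of the 117 list genes, 1 (Gja5) was called relative to the pan-endothelial genes, and 14 of those named by their place in a list were called with library weights.

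With the replicate number as a block, 0 of 10 markers were called and the medians stayed at 0.24, 0.10 and 0.17, while calls over all genes numbered 17, 1 and 1 in place of 46, 6 and 2 in the 3 comparisons. Deviations of same-numbered libraries correlated across all genes at 0.36 for wild-type and heterozygous replicates 1 and at 0.30 for their replicates 3, and at −0.031 to 0.065 for the other 7 pairs. Not every pair was over 0.1, so the numbers were not taken to pair the libraries.

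Estimates that changed sign were all short of the test as reported. With Xist as a covariate, these were Pecam1 −0.00658 in homozygous against heterozygous hearts. With library weights, these were Eng 0.23, Apln 0.10, Hey1 0.0612, Rcan1 0.00766, Vegfb 0.0314 in homozygous against wild-type hearts, and Eng 0.0284 in homozygous against heterozygous hearts. Without wild-type and heterozygous replicates 1, these were Kdr −0.0826, Flt1 −0.0376, Ctnna1 −0.0725 in homozygous against wild-type hearts. Without these and homozygous replicate 3, these were Eng 0.19, Hey1 0.0142 in homozygous against wild-type hearts, and Kdr 0.0156, Eng 0.0718 in homozygous against heterozygous hearts. With median-ratio scaling, these were Pecam1 −0.0298, Kdr −0.19, Flt1 −0.18, Emcn −0.0426, Ctnna1 −0.21, Lyve1 −0.23 in homozygous against wild-type hearts, and Pecam1 −0.0304, Emcn −0.0666 in homozygous against heterozygous hearts, and Tek −0.00552, Tie1 −0.0164, Eng −0.0299, Nfatc1 −0.0618 in heterozygous against wild-type hearts. With a pseudocount of 0.1, these were Lyve1 −0.00639 in homozygous against wild-type hearts. With quantile normalization, these were Kdr −0.14, Flt1 −0.20, Nfatc1 −0.0169, Ctnna1 −0.0243, Foxo1 −0.0579, Lyve1 −0.27 in homozygous against wild-type hearts, and Emcn −0.0332 in homozygous against heterozygous hearts, and Nfatc1 −0.11 in heterozygous against wild-type hearts. Relative to the pan-endothelial genes, these were Pecam1 −0.0448, Kdr −0.21, Flt1 −0.21, Emcn −0.0597, Ctnna1 −0.22, Foxo1 −0.00806, Lyve1 −0.25 in homozygous against wild-type hearts, and Pecam1 −0.0375, Emcn −0.0743 in homozygous against heterozygous hearts, and Pecam1 −0.00724, Tek −0.0178, Tie1 −0.0259, Eng −0.0368, Nfatc1 −0.0848 in heterozygous against wild-type hearts. Rescaled without mitochondrially encoded and haemoglobin genes, these were Kdr −0.00598, Flt1 −0.00629, Ctnna1 −0.0212, Lyve1 −0.0546 in homozygous against wild-type hearts, and Emcn −0.00555 in homozygous against heterozygous hearts. Signs also changed when single libraries were left out. In homozygous against wild-type hearts these ranges were −0.12 to 0.26 for Kdr, −0.15 to 0.30 for Flt1, −0.0858 to 0.23 for Ctnna1, −0.31 to 0.39 for Lyve1, −0.16 to 0.22 for Eng, −0.28 to 0.13 for Apln, −0.14 to 0.0594 for Hey1, −0.26 to 0.0193 for Rcan1. In homozygous against heterozygous hearts these ranges were −0.069 to 0.20 for Pecam1, −0.15 to 0.25 for Emcn, −0.10 to 0.55 for Vwf, −0.0436 to 0.41 for Cdh5, −0.0557 to 0.40 for Tek, −0.0119 to 0.37 for Tie1, −0.33 to 0.0509 for Kdr, −0.44 to 0.0139 for Flt1, −0.30 to 0.0908 for Eng. In heterozygous against wild-type hearts these ranges were −0.0396 to 0.17 for Nfatc1. The cause of these changes was not tested. TPM keeps no depth, so the precision of low values such as those of Nfatc1 could not be judged from counts.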
